A study of Mus musculus with 16 samples.

Results

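Fetal liver cells from E12.5 mouse embryos that carried the GATA1s knock-in allele were compared with cells from embryos of the same stage without it. The comparison used 8 of the 16 arrays of the series. The 4 carrier arrays were WT/GATA1s, with the knock-in allele and no transgene, and ERG/GATA1s, with the knock-in allele and the ERG transgene. The 4 non-carrier arrays were WT, with neither, and ERG Tg, with the transgene alone. Each of these groups held 2 arrays, 1 labelled female and 1 labelled male, and the other 8 arrays repeat the design at E14.5. Embryos came from timed matings, were genotyped by PCR and were dissected for liver, which was made into a suspension of single cells before total RNA was taken. The sources used here do not give the strain, the promoter and species of the ERG transgene, the number of embryos per sample or the number of copies of the X-linked allele in female carriers. The sex labels would place the 2 arrays of a group in different embryos, but sex-linked transcripts did not match several of these labels (below). Separate embryos are not stated elsewhere in these sources. A p-value therefore measures only how these arrays vary, which may be technical.

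GATA1 is a zinc finger transcription factor that drives the maturation of red cells, megakaryocytes, eosinophils and mast cells. GATA1s is the shorter protein made from a later start codon; it keeps the zinc fingers and lacks the amino-terminal activation domain. In humans, mutations that leave only GATA1s accompany the transient myeloproliferative disorder and the megakaryoblastic leukaemia of Down syndrome, and in mice the short form is known to let fetal liver megakaryocyte progenitors overgrow for a time. ERG, an ETS transcription factor of stem cells and megakaryocytes, lies on the chromosome that is in excess in Down syndrome. At midgestation the fetal liver holds immature hepatocytes, called hepatoblasts, among a large mass of red cell precursors, with fewer megakaryocytes, granulocyte precursors and macrophages.

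Values are the deposited log2 signal of a probe set, and the difference of a gene is the mean of carriers minus that of non-carriers with the ERG transgene as a block, in log2 units. A gene was called where its adjusted p was under 0.05 (limma, two-sided, Benjamini-Hochberg over 14818 genes). The array medians at E12.5 lay between 4.79 and 4.94, and the median residual SD over genes was 0.183. Arrays have no read depth, so precision is set by how many there were. The ERG/GATA1s array labelled male stood apart: its signals had an SD of 2.03, against 2.13 to 2.19 on the other 7 arrays, and its correlation with the other ERG/GATA1s array was 0.974. The mean signal of 18 red cell membrane genes was 8.88 to 9.25 in carriers and 8.71 to 9.39 in non-carriers. That of 30 hepatocyte plasma protein genes was 7.28 to 7.55 in carriers and 7.90 to 8.49 in non-carriers. For 7 lymphoid genes it was 4.47 to 4.63 in carriers and 4.39 to 4.55 in non-carriers. Only genes above 3.79, the level used to set aside dim genes, on at least 4 of the 8 arrays were tested. A list mean above that level is therefore no check of the tissue label.

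The labelled sex of several arrays did not match their sex-linked transcripts. Xist, the RNA of the inactive X chromosome, was 10.02 and 9.83 on the WT/GATA1s arrays labelled female and male and 10.08 and 9.51 on the ERG/GATA1s arrays, and the mean of the Y-linked Eif2s3y, Kdm5d and Uty was 3.60, 3.77, 3.91 and 3.92 in the same order. All 4 carrier arrays therefore had high Xist and low Y-linked signal, including both that are labelled male. Among non-carriers Xist was 10.65 and 10.83 on the WT and ERG Tg arrays labelled female, with a Y-linked mean of 3.73 and 3.48. The WT array labelled male had both signals (Xist 9.35, Y-linked mean 4.95), and the ERG Tg array labelled male had intermediate Xist (5.73) with a Y-linked mean of 5.61. Sex composition thus moved with the allele, and its part in the results was not tested. The calls of the gene groups are also given under 2 refits: one without both carrier arrays labelled male, and one on the 6 arrays with high Xist and low Y-linked signal, chosen after the data were seen. At E14.5 the ERG/GATA1s array labelled female had Xist at 4.22 and a Y-linked mean of 6.50, and the ERG Tg array labelled male had Xist at 10.03 and a Y-linked mean of 5.27. Xist in carriers minus non-carriers was 0.72 at E12.5 and -3.31 at E14.5. At E12.5 only the ERG Tg array labelled male lay far below the other arrays. The Y-linked Kdm5d and Uty differed by -0.60 and -0.67 at E12.5 and by 0.94 and 1.145 at E14.5. None of these differences was called. By the signs of the Y-linked genes, sex composition moved with the allele in opposite directions at the 2 stages. The comparison called 13 of 428 X-linked genes and none of 3 Y-linked genes, where 3.12% of all genes were called.

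**Figure D1:**
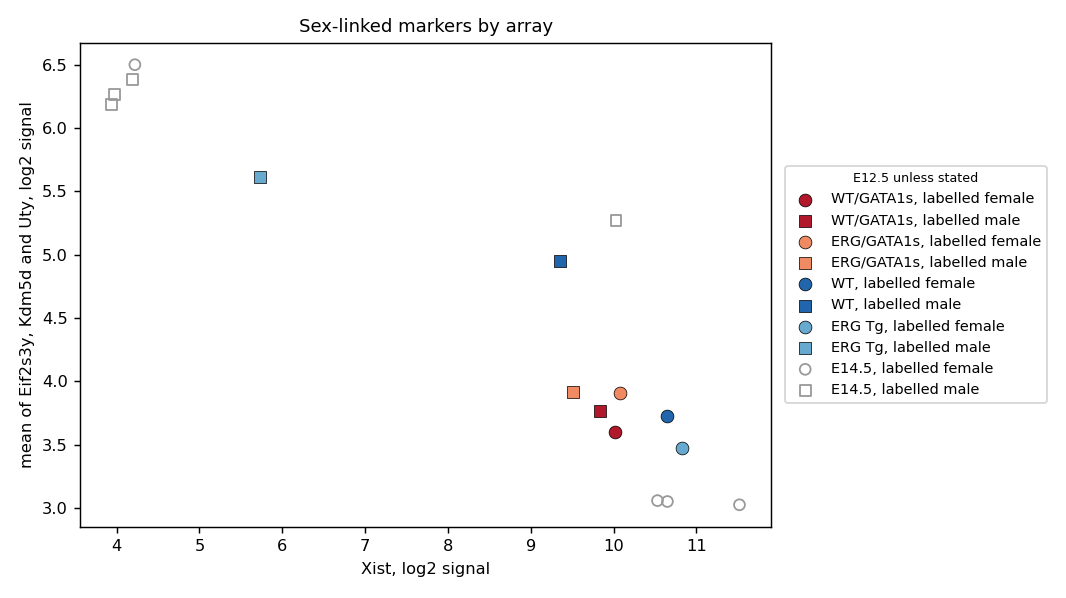
Log2 signal of Xist (x axis) against the mean log2 signal of 3 Y-linked genes (y axis), 1 point per array. Filled points are E12.5 arrays coloured by group and open grey points are E14.5 arrays; circles are labelled female and squares male. All 4 carrier arrays lie at Xist 9.51 to 10.08 with a Y-linked mean of 3.60 to 3.92, while the ERG Tg array labelled male lies at 5.73 and 5.61.

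The genes of the design were examined first. Gata1 signal was 9.56 and 9.58 on the WT/GATA1s arrays and 9.60 and 9.30 on the ERG/GATA1s arrays, against 9.76 and 10.02 on the WT arrays and 9.69 and 9.36 on the ERG Tg arrays, the first value of each pair being the array labelled female here and below. The groups overlapped, and the difference of -0.20 ± 0.13 (SE; adjusted p = 0.445) did not pass. The labels do not say whether its probe set can tell the short from the long protein's transcript, so it does not check the knock-in allele. Erg signal was 5.69 and 5.80 on the WT/GATA1s arrays and 6.01 and 5.90 on the ERG/GATA1s arrays, against 5.51 and 5.35 on the WT arrays and 5.58 and 5.63 on the ERG Tg arrays. Every carrier value lay above every non-carrier value, by little, and the difference of 0.33 ± 0.10 (SE; adjusted p = 0.13) did not pass.

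Of 14818 genes tested, 462 were called (3.12% of the genes), 278 higher in carriers (1.88%) and 184 lower (1.24%), and 2526 had an unadjusted p under 0.05. These shares are the background for the counts of every list below. With each array centred on its median 142 were higher and 133 lower, and with labelled sex as a second block 374 were higher and 431 lower. The signals of carriers and non-carriers did not overlap for 428 of the 462, against 1323 of all genes (8.93%). The rise exceeded 2-fold for 60 genes and the fall for 42. The smallest size of a called difference was 0.43, and the range of the calls was from -1.63 to 2.73. When each array was left out in turn, 136 genes kept the call in all 8 refits, 79 higher and 57 lower, and the number called was lowest, 148, without the WT/GATA1s array labelled female, 169 without the one labelled male, 257 without the female-labelled WT array and 249 without the ERG Tg array labelled female, and highest, 1115, without the ERG/GATA1s array labelled female. No gene passed on the 4 arrays labelled male alone (limma; 1056 at an unadjusted p under 0.05), and 232 passed on the 4 labelled female. These fits of 4 arrays had far fewer residual degrees of freedom than the 5 of the main fit. Their counts, here and below, are therefore no test of a difference between the sexes.

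**Figure D2:**
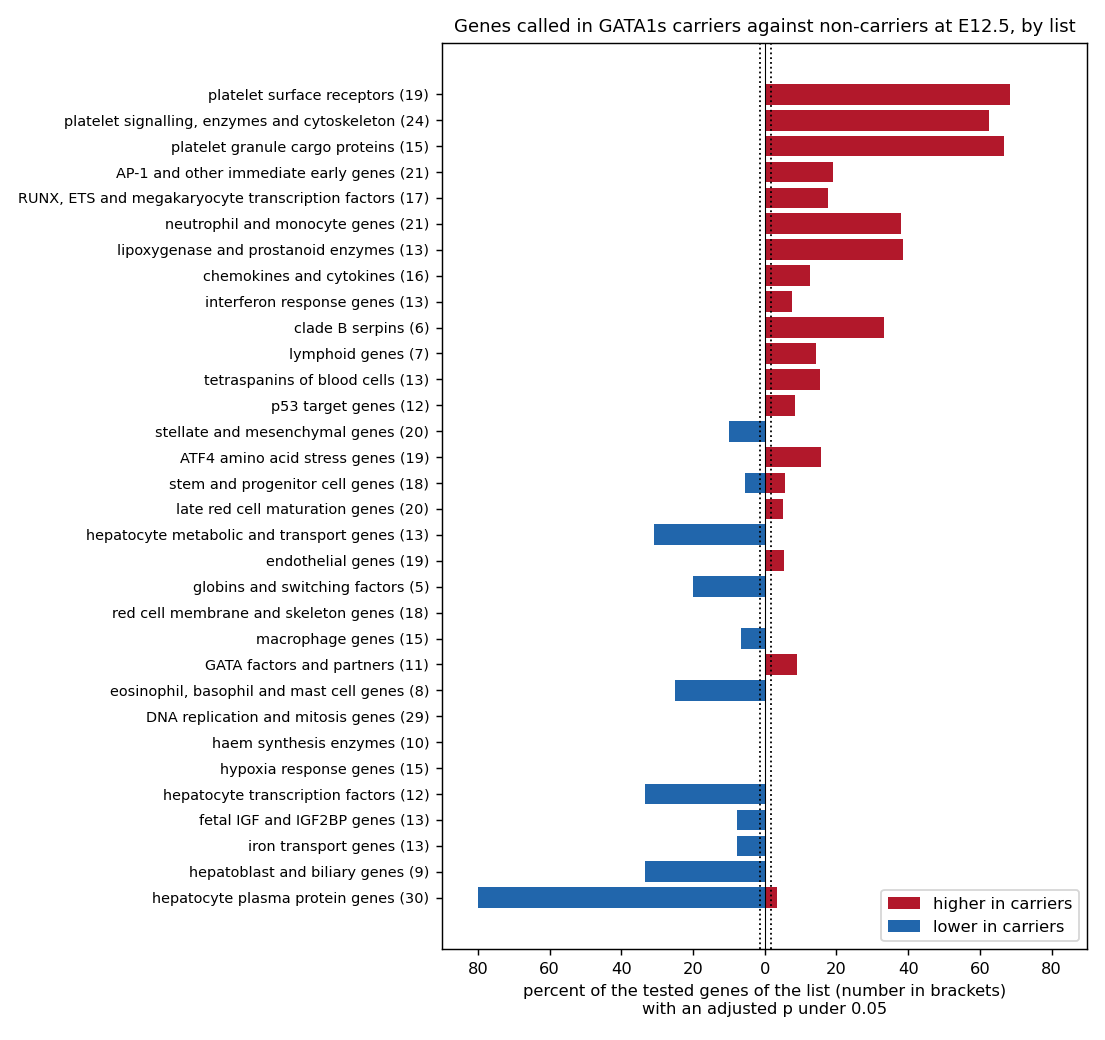
Percent of the tested genes of each list with an adjusted p under 0.05, higher in carriers to the right (red) and lower to the left (blue); the number of tested genes stands in brackets and lists run by their median log2 difference, highest at the top. Dotted lines are the shares over all genes, 1.88% higher and 1.24% lower. The 3 platelet lists reach furthest right and the hepatocyte plasma protein list furthest left.

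Genes of platelets and their precursors, the megakaryocytes, were higher in carriers. The allele's comparison called 13 of 19 tested platelet surface receptors, 10 of 15 granule cargo proteins and 15 of 24 signalling and cytoskeletal genes, all higher, where 1.88% of all genes were called higher. The median differences of these lists were 0.93, 0.78 and 0.83, against -0.005 over all genes. In a bulk sample more cells of a type and more RNA per cell cannot be told apart, and likewise fewer cells and less RNA.

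Mmrn1, which encodes the platelet granule protein multimerin, had the largest fitted difference among the genes called higher. Its signal was 7.46 and 7.59 on the WT/GATA1s arrays and 6.91 and 6.23 on the ERG/GATA1s arrays, against 5.62 and 3.64 on the WT arrays and 4.44 and 3.59 on the ERG Tg arrays. The difference was 2.73 ± 0.35 (SE; adjusted p = 0.00299), all carriers lay above all non-carriers, and both non-carrier arrays labelled male lay under the dim level of 3.79, so its size and its rank rest in part on signals that dim. Itga2b and Itgb3 encode the 2 chains of the fibrinogen receptor. Itga2b was 9.05 and 9.0 on the WT/GATA1s arrays and 9.0 and 8.81 on the ERG/GATA1s arrays, against 8.13 and 7.61 on the WT arrays and 7.44 and 7.67 on the ERG Tg arrays, a difference of 1.25 ± 0.14 (SE; adjusted p = 0.00172). For Itgb3 the values were 9.44 and 9.58 on the WT/GATA1s arrays and 9.24 and 9.10 on the ERG/GATA1s arrays, against 8.52 and 7.90 on the WT arrays and 7.84 and 7.99 on the ERG Tg arrays, a difference of 1.28 ± 0.14 (SE; adjusted p = 0.00172). Neither receptor chain overlapped between the groups, and the WT array labelled female was the highest non-carrier for both.

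Among the other receptors, F2rl2, a protease-activated receptor that serves as a cofactor for thrombin on mouse platelets, rose by 1.25 ± 0.17 (SE; adjusted p = 0.0036). Treml1, a granule membrane receptor brought to the platelet surface on activation, rose by 1.19 ± 0.12 (SE; adjusted p = 0.00172), and Mpig6b, an inhibitory receptor, by 1.14 ± 0.21 (SE; adjusted p = 0.012). Gp9, a subunit of the von Willebrand factor receptor, was 10.22 and 10.27 on the WT/GATA1s arrays and 9.68 and 9.53 on the ERG/GATA1s arrays, against 9.26 and 8.71 on the WT arrays and 8.77 and 8.24 on the ERG Tg arrays, a difference of 1.18 ± 0.15 (SE; adjusted p = 0.00311). The receptors called also included Gp5, Clec1b, F2rl3, P2rx1, Pear1, Cd226 and the tetraspanin Cd9. Gp1ba, Gp1bb and Gp6 were not tested. The call of Mpig6b was lost in 2 of the 8 leave-one-out refits, with an adjusted p of up to 0.0628 without the WT/GATA1s array labelled female.

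Of the granule cargo, Pf4, the chemokine platelet factor 4, was 10.51 and 10.44 on the WT/GATA1s arrays and 9.81 and 9.69 on the ERG/GATA1s arrays, against 9.54 and 9.08 on the WT arrays and 9.12 and 9.19 on the ERG Tg arrays. The WT/GATA1s arrays had the highest values and the ERG/GATA1s arrays lay between these and the non-carriers. The difference of Pf4 was 0.88 ± 0.15 (SE; adjusted p = 0.0084), that of F13a1, the clot-crosslinking factor XIII subunit, 1.21 ± 0.21 (SE; adjusted p = 0.0101), and that of the adhesive protein Thbs1 1.07 ± 0.18 (SE; adjusted p = 0.00777). Clu (clusterin) and Ecm1 rose by 0.82 and 0.83, and Vwf, Timp3, Nbeal2 and Pdgfb were the other cargo genes called. Leaving out the WT/GATA1s array labelled female ended the calls of Pf4 (adjusted p = 0.0503), F13a1 (0.0544) and Ecm1 (0.0544).

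Of the signalling list, Alox12, the platelet lipoxygenase, was 8.67 and 8.49 on the WT/GATA1s arrays and 7.82 and 7.45 on the ERG/GATA1s arrays, against 7.35 and 6.57 on the WT arrays and 6.71 and 6.62 on the ERG Tg arrays, a difference of 1.29 ± 0.19 (SE; adjusted p = 0.00411). Lat, an adaptor of the collagen receptor pathway, was 8.52 and 8.42 on the WT/GATA1s arrays and 7.81 and 7.85 on the ERG/GATA1s arrays, against 7.27 and 6.77 on the WT arrays and 6.81 and 6.69 on the ERG Tg arrays, a difference of 1.26 ± 0.14 (SE; adjusted p = 0.00172). Both were highest on the WT/GATA1s arrays, and carriers and non-carriers did not overlap. Tbxas1, which makes thromboxane, rose by 1.23 ± 0.19 (SE; adjusted p = 0.00489), the kinase Prkcq by 1.09 ± 0.17 (SE; adjusted p = 0.00651), and the G protein subunit Gnaz by 1.05 ± 0.12 (SE; adjusted p = 0.00172). Rgs18, a regulator of G protein signalling, was called with a difference of 1.06 ± 0.23 (SE; adjusted p = 0.0293) that lost its call in 4 of the 8 leave-one-out refits, with an adjusted p of up to 0.12 without the WT/GATA1s array labelled female. Plek, Rab27b, Rasgrp2, Bin2, Tubb1, Syk, Lcp2, Pstpip2 and Ubash3b were the other members called.

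The number of platelet genes that passed differed with the arrays in the fit. The receptors called numbered 7 without either WT/GATA1s array, the cargo genes 5 without the one labelled female, and the signalling genes 10 without either. Without both carrier arrays labelled male, 8 receptors, 2 cargo genes and 9 signalling genes were called, with medians of 1.05, 0.75 and 0.87. On the 6 arrays with female sex markers the numbers were 12, 9 and 13. The 4 arrays labelled female gave 11, 7 and 8, and the 4 labelled male gave none at medians of 0.96, 0.79 and 0.89.

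**Figure D3:**
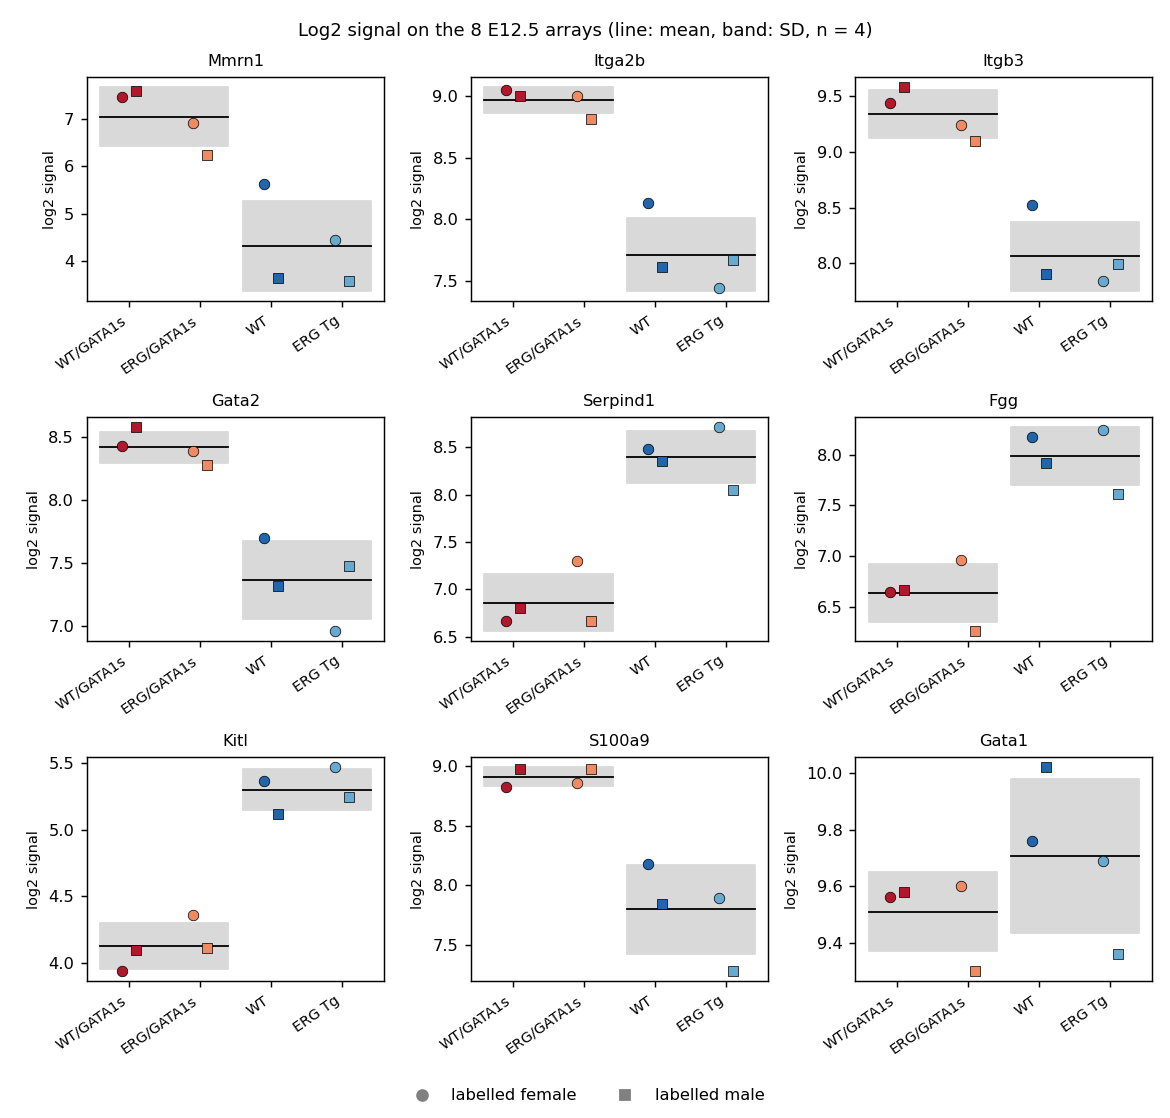
Log2 signal of 9 genes on the 8 E12.5 arrays, 1 point per array, carriers left and non-carriers right; circles are labelled female and squares male. Lines are the means of the 4 carriers and of the 4 non-carriers and grey bands are 1 SD. Mmrn1, Itga2b, Itgb3, Gata2 and S100a9 lie higher in all carriers, Serpind1, Fgg and Kitl lower, and Gata1 overlaps.

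Promoters of the called platelet genes were read from RefSeq (GRCm38.p6) in windows that run from 250 bases before to 50 bases after the start site, for genes with 1 window. The GATA motif AGATAA, or its reverse complement TTATCT on the other strand, was in 8 of 23 called platelet genes (34.8%), in 25 of 175 genes called higher (14.3%), in 12 of 127 called lower (9.4%) and in 662 of 9455 tested genes (7.0%). The ETS motif AGGAAG, or its reverse complement CTTCCT on the other strand, was in 15 of the 23 (65.2%), 92 of the 175 (52.6%), 37 of the 127 (29.1%) and 3151 of the 9455 (33.3%). These shares describe letters in a window and show no binding. The 250 bases before the start of Gp5, a further subunit of the von Willebrand factor receptor, and of F2rl2 are shown as examples in which a GATA motif, in capitals, lies close to the start. They lie at chr16:30310782-30311031 on the minus strand, with 2 matches, and at chr13:95696670-95696919 on the plus strand, with 1.
Gp5: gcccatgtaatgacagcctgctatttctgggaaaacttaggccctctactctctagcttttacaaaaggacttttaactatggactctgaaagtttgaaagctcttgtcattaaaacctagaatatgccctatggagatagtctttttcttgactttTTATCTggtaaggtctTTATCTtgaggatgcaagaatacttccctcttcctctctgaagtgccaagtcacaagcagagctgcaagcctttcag
F2rl2: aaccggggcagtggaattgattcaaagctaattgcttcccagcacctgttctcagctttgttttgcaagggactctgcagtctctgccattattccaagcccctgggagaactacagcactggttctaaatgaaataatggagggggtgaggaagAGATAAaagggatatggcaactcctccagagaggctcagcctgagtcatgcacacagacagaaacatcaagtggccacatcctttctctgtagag
Both genes were chosen after their sequences were seen. In F2rl2 the ETS motif on the same strand ends where the GATA motif begins.

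Gata2, the GATA factor of stem and early progenitor cells and mast cells, was the 1 member of 11 GATA factors and partners called. Its signal was 8.43 and 8.58 on the WT/GATA1s arrays and 8.39 and 8.28 on the ERG/GATA1s arrays, against 7.70 and 7.32 on the WT arrays and 6.96 and 7.48 on the ERG Tg arrays, so all carriers lay above all non-carriers. The difference was 1.05 ± 0.14 (SE; adjusted p = 0.00349), and the call held in all 8 leave-one-out refits. The median of the list was -0.18. Of 17 RUNX, ETS and megakaryocyte transcription factors 3 were called, all higher: Runx1 (0.60 ± 0.13 SE, adjusted p = 0.0254), a master regulator of definitive blood stem cells and megakaryocytes, Spi1 (0.58 ± 0.12 SE, adjusted p = 0.026), which encodes PU.1 of myeloid cells, and Runx3 (0.56 ± 0.12 SE, adjusted p = 0.0293). These calls were lost in 5, 4 and 6 of the 8 refits that left out 1 array, with an adjusted p of up to 0.128, 0.102 and 0.129, the highest in each case without the WT/GATA1s array labelled male.

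Of 18 stem and progenitor cell genes, Slamf1, a surface receptor of stem cells that platelets also carry, rose and Myc fell. Slamf1 was 7.16 and 7.15 on the WT/GATA1s arrays and 6.16 and 6.02 on the ERG/GATA1s arrays, against 6.28 and 5.81 on the WT arrays and 5.79 and 5.04 on the ERG Tg arrays, a difference of 0.89 ± 0.18 (SE; adjusted p = 0.0176). Its ERG/GATA1s values lay among those of the WT arrays, so the groups overlapped. Myc, the growth regulator, was 9.23 and 9.21 on the WT/GATA1s arrays and 9.25 and 9.02 on the ERG/GATA1s arrays, against 9.81 and 9.46 on the WT arrays and 9.82 and 9.64 on the ERG Tg arrays, a difference of -0.51 ± 0.12 (SE; adjusted p = 0.048). All carriers lay below all non-carriers for Myc, and its call was lost in 6 of the 8 leave-one-out refits, with an adjusted p of 0.202 without the WT array labelled female. The call of Slamf1 was lost in 2, with an adjusted p of up to 0.0825 without the WT/GATA1s array labelled female.

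Granule proteins of maturing neutrophils were higher in carriers. Of 21 tested neutrophil and monocyte genes 8 were called, all higher, and the median of the list was 0.28. The share called higher over all genes was 1.88%. S100a9, a chain of calprotectin, was 8.83 and 8.98 on the WT/GATA1s arrays and 8.86 and 8.98 on the ERG/GATA1s arrays, against 8.18 and 7.84 on the WT arrays and 7.89 and 7.28 on the ERG Tg arrays. The 4 carriers lay between 8.83 and 8.98 and above all non-carriers, and the difference was 1.11 ± 0.16 (SE; adjusted p = 0.00387). Its partner S100a8 rose by 0.95 ± 0.19 (SE; adjusted p = 0.0206). Ltf, which encodes lactoferrin of the secondary granules, was 7.46 and 7.73 on the WT/GATA1s arrays and 8.23 and 7.78 on the ERG/GATA1s arrays, against 7.03 and 6.68 on the WT arrays and 6.61 and 5.86 on the ERG Tg arrays, a difference of 1.25 ± 0.23 (SE; adjusted p = 0.0127), with the highest value on the ERG/GATA1s array labelled female and the lowest on the ERG Tg array labelled male. Camp (cathelicidin), Ngp and Lcn2 (lipocalin of neutrophil granules) rose by 1.05, 0.99 and 0.84, and Lyz2 and Plac8 were also called. Calls were lost in 6 of the 8 leave-one-out refits for Camp and Lcn2 and in 2 for S100a8, with an adjusted p of up to 0.075, 0.0884 and 0.0752.

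A further 3 genes expressed in neutrophils were among the 15 largest rises. Ly6g, a neutrophil surface protein, was 5.62 and 6.20 on the WT/GATA1s arrays and 6.96 and 6.39 on the ERG/GATA1s arrays, against 5.19 and 5.20 on the WT arrays and 4.47 and 4.0 on the ERG Tg arrays, a difference of 1.58 ± 0.30 (SE; adjusted p = 0.0158). Mmp8, the neutrophil collagenase, whose non-carrier arrays labelled male (3.79 and 3.60) lay at and under the dim level, rose by 1.45 ± 0.21 (SE; adjusted p = 0.00411) and Retnlg, a resistin-like protein, by 1.32 ± 0.15 (SE; adjusted p = 0.00172). Stfa2, a stefin, was 7.99 ± 0.16 in carriers and 6.62 ± 0.57 in non-carriers (SD, n = 4 each). Probe sets of Stfa2 and Ly6g can share sequence with near-identical family members, so the member that changed is uncertain. The neutrophil calls rested on few arrays: 3 passed without the WT/GATA1s array labelled male, 4 without the one labelled female, 5 without the WT array labelled male or the ERG Tg array labelled female, 3 on the 6 arrays with female sex markers, 3 with each array centred on its median, and none without both carrier arrays labelled male, where the median was 0.29.

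Enzymes of the lipoxygenase and prostanoid pathways, which make inflammatory lipids in platelets and granulocytes, included 5 called of 13, all higher (1.88% over all genes). Ptgs2, the inducible cyclooxygenase, was 7.50 and 7.17 on the WT/GATA1s arrays and 6.47 and 6.53 on the ERG/GATA1s arrays, against 5.77 and 4.52 on the WT arrays and 5.14 and 5.11 on the ERG Tg arrays, a difference of 1.78 ± 0.24 (SE; adjusted p = 0.00387). It was highest on the WT/GATA1s arrays and did not overlap. Alox5, the 5-lipoxygenase, rose by 1.07 ± 0.18 (SE; adjusted p = 0.00939) and its activating protein Alox5ap by 0.90 ± 0.12 (SE; adjusted p = 0.00323); Alox12 and Tbxas1 also belong to the platelet list. The call of Alox5 was lost without the WT/GATA1s array labelled female (adjusted p = 0.0526). Of 6 tested clade B serpins, intracellular protease inhibitors, 2 rose: Serpinb2, the plasminogen activator inhibitor of monocytes, by 1.77 ± 0.25 (SE; adjusted p = 0.00387), and Serpinb10 by 1.62 ± 0.31 (SE; adjusted p = 0.0153), and Serpinb10 lost its call in 2 leave-one-out refits with an adjusted p of up to 0.0695 without the WT/GATA1s array labelled female. The tetraspanins Cd9 and Cd37 were the 2 called of 13, with differences of 1.03 ± 0.12 (SE; adjusted p = 0.00172) and 0.62 ± 0.12 (SE; adjusted p = 0.0137), and the call of Cd37 was lost in 2 of the 8 refits with an adjusted p of up to 0.067 without the WT/GATA1s array labelled female.

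Of 8 tested eosinophil, basophil and mast cell genes 2 were lower in carriers, where 1.24% of all genes were called lower. Ear6, an eosinophil-associated ribonuclease, was 6.93 and 6.91 on the WT/GATA1s arrays and 7.96 and 6.95 on the ERG/GATA1s arrays, against 8.59 and 8.54 on the WT arrays and 8.92 and 8.44 on the ERG Tg arrays. The ERG/GATA1s array labelled female, at 7.96, lay far above the other carriers and below all non-carriers. The difference was -1.44 ± 0.20 (SE; adjusted p = 0.00387), but the ribonucleases of this family are near-identical, so the member is uncertain. Prg3, an eosinophil granule protein, fell by 0.56 on the log2 scale, and its call was lost in 7 of the 8 leave-one-out refits, with an adjusted p of up to 0.19 without the WT/GATA1s array labelled male.

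Immediate early genes are transcription factors and regulators induced within minutes of a stimulus and by cell handling. They were called higher in 4 of 21 tested, where 1.88% of all genes were. The difference was above 0 for all 21, with a median of 0.47. Nr4a1, a nuclear receptor, was 7.87 and 7.90 on the WT/GATA1s arrays and 7.42 and 7.12 on the ERG/GATA1s arrays, against 6.54 and 6.60 on the WT arrays and 5.95 and 6.43 on the ERG Tg arrays. Its carriers lay above all non-carriers, with the WT/GATA1s arrays highest, and the difference was 1.20 ± 0.13 (SE; adjusted p = 0.00172). Fosl1 and Fosb, subunits of AP-1, rose by 0.86 ± 0.13 (SE; adjusted p = 0.00411) and 0.99 ± 0.17 (SE; adjusted p = 0.00942). Hspa1a, an inducible heat shock protein whose near-identical neighbour Hspa1b can share its probes, was 7.92 and 8.34 on the WT/GATA1s arrays and 9.08 and 8.69 on the ERG/GATA1s arrays, against 7.57 and 7.64 on the WT arrays and 7.18 and 7.19 on the ERG Tg arrays, a difference of 1.11 ± 0.22 (SE; adjusted p = 0.0161). Here the ERG/GATA1s arrays were highest. Calls were lost for Fosb without the WT/GATA1s array labelled female (adjusted p = 0.0544) and for Hspa1a in 2 refits (up to 0.0537, without the ERG Tg array labelled female). Handling of the cell suspensions was not recorded in the sources used here, and its part was not tested.

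Of 19 ATF4 target genes of the amino acid stress response 3 were called higher: the cystine transporter Slc7a11 (1.09 ± 0.18 SE, adjusted p = 0.0084), Chac1, which degrades glutathione (0.96 ± 0.15 SE, adjusted p = 0.00526), and Sesn2 (0.54 ± 0.12 SE, adjusted p = 0.0296). Slc7a11 lost its call without the WT/GATA1s array labelled female (adjusted p = 0.0503) and Sesn2 lost its call in 5 of the 8 refits (up to 0.148, without the WT/GATA1s array labelled male). Carriers and non-carriers overlapped for Slc7a11 and Sesn2 and not for Chac1. The list's median was 0.05. Of 16 chemokines and cytokines Ccl3 and Tnf were called higher, by 0.73 ± 0.17 (SE; adjusted p = 0.0386) and 0.59 ± 0.12 (SE; adjusted p = 0.0187), and these calls were lost in 6 and 4 of the 8 refits.

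Red cell genes showed few calls. None of 10 haem synthesis enzymes and none of 18 red cell membrane genes passed (limma), with medians of -0.22 and -0.11 and with 9 of the 10 and 14 of the 18 differences below 0. When 1 array was left out, up to 3 haem enzymes and no membrane gene were called lower. Cpox and Ppox, enzymes of late haem synthesis, had the smallest p of the haem list, with differences of -0.38 ± 0.16 (SE; adjusted p = 0.256) and -0.35 ± 0.18 (SE; adjusted p = 0.358). In the membrane list Ank1 (ankyrin) and Ermap had differences of -0.33 ± 0.14 (SE; adjusted p = 0.241) and -0.24 ± 0.13 (SE; adjusted p = 0.356). The mean signal of the membrane list was 9.13 and 9.12 on the WT/GATA1s arrays and 9.25 and 8.88 on the ERG/GATA1s arrays, against 9.36 and 9.39 on the WT arrays and 9.38 and 8.71 on the ERG Tg arrays. The 2 lowest values came from the array labelled male of each group with the ERG transgene. The mean of the haem list was 9.63 and 9.67 on the WT/GATA1s arrays and 9.89 and 9.55 on the ERG/GATA1s arrays. It was 9.96 and 10.18 on the WT arrays and 9.99 and 9.41 on the ERG Tg arrays. For both lists carriers and non-carriers overlapped only through the ERG Tg array labelled male.

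Of 20 late red cell maturation genes Car1 was the 1 called. Car1, carbonic anhydrase 1, was 10.69 and 10.75 on the WT/GATA1s arrays and 10.42 and 10.26 on the ERG/GATA1s arrays, against 10.16 and 9.42 on the WT arrays and 9.78 and 9.46 on the ERG Tg arrays, a difference of 0.82 ± 0.16 (SE; adjusted p = 0.0158). Bcl11a, which represses embryonic and fetal globin genes, was the 1 called of 5 tested globin genes and switching factors, at 8.82 and 8.76 on the WT/GATA1s arrays and 9.24 and 8.81 on the ERG/GATA1s arrays, against 9.62 and 9.58 on the WT arrays and 9.64 and 9.40 on the ERG Tg arrays. It was lower in all carriers, with a difference of -0.65 ± 0.13 (SE; adjusted p = 0.0193). The calls of Car1 and Bcl11a were lost in 2 and 4 of the 8 leave-one-out refits, with an adjusted p of up to 0.075 and 0.102, both without the WT/GATA1s array labelled male. None of 29 DNA replication and mitosis genes passed; 25 of their differences were below 0, with a median of -0.20, and Top2a and Kif11 had the smallest p, with differences of -0.47 ± 0.15 (SE; adjusted p = 0.147) and -0.46 ± 0.15 (SE; adjusted p = 0.154). At most 1 of the 29 passed in any leave-one-out refit, and 13 passed, all lower, with array weights.

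Plasma protein genes of hepatocytes were lower in carriers. Of 30 tested plasma protein genes 24 fell and 1, F10, rose, where 1.24% of all genes were called lower, and the median difference was -1.02. The mean signal of the 30 genes was 7.28 and 7.32 on the WT/GATA1s arrays and 7.55 and 7.29 on the ERG/GATA1s arrays, against 8.40 and 8.25 on the WT arrays and 8.49 and 7.90 on the ERG Tg arrays. Every carrier lay below every non-carrier, with the ERG/GATA1s array labelled female the highest carrier and the ERG Tg array labelled male the lowest non-carrier.

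Serpind1, heparin cofactor II, was 6.67 and 6.80 on the WT/GATA1s arrays and 7.30 and 6.67 on the ERG/GATA1s arrays, against 8.48 and 8.35 on the WT arrays and 8.71 and 8.05 on the ERG Tg arrays, a difference of -1.54 ± 0.17 (SE; adjusted p = 0.00172). Fgg, the gamma chain of fibrinogen, was 6.64 and 6.66 on the WT/GATA1s arrays and 6.96 and 6.26 on the ERG/GATA1s arrays, against 8.17 and 7.92 on the WT arrays and 8.24 and 7.61 on the ERG Tg arrays, a difference of -1.35 ± 0.17 (SE; adjusted p = 0.00299). The groups did not overlap for either, and both calls held in all 8 leave-one-out refits. Vtn (vitronectin) was 7.35 and 7.36 on the WT/GATA1s arrays and 7.64 and 7.33 on the ERG/GATA1s arrays, against 8.99 and 8.93 on the WT arrays and 9.06 and 8.10 on the ERG Tg arrays, a difference of -1.35 ± 0.19 (SE; adjusted p = 0.00387). Cpn1, a carboxypeptidase N subunit, fell by 1.53, Apob, the protein of very low density lipoprotein, by 1.28 and Ahsg (fetuin A) by 1.21 on the log2 scale. Ahsg lost its call in 5 of the 8 refits, with an adjusted p of up to 0.108 without the WT/GATA1s array labelled male.

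The other plasma protein genes called lower were Alb, Afp, Apoa1, Apoa2, Apom, Ttr, Fga, Fgb, F2, Serpina6, Serpinc1, Serpinf2, Ambp, Hpx, Rbp4, Plg, Itih2 and Kng1. Leaving out 1 array gave 17 to 26 falls, the fewest without the WT/GATA1s array labelled female, and F10 lost its call without either WT/GATA1s array. Without both carrier arrays labelled male 9 fell, at a median of -0.98. On the 6 arrays with female sex markers 26 fell, at a median of -1.21, and on the 4 arrays labelled female 25 fell, at a median of -1.14. No plasma protein gene passed on the 4 arrays labelled male, where the median was -0.83.

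Hepatocyte transcription factors fell in 4 of 12 tested, where 1.24% of all genes were called lower, with a list median of -0.25. Hnf4a, the nuclear receptor that maintains hepatocyte identity, was 6.20 and 6.18 on the WT/GATA1s arrays and 6.37 and 6.32 on the ERG/GATA1s arrays, against 7.06 and 7.40 on the WT arrays and 7.17 and 6.98 on the ERG Tg arrays. Every carrier lay below every non-carrier, and the difference was -0.89 ± 0.12 (SE; adjusted p = 0.00387). Foxa3, a forkhead factor of liver, fell by 0.82 and Onecut2 by 0.69 on the log2 scale, and all 3 calls held in the 8 leave-one-out refits. Prox1, which drives hepatoblast migration, had a difference of -0.72 ± 0.14 (SE; adjusted p = 0.0149) and lost its call in 4 refits, with an adjusted p of up to 0.0751 without the WT/GATA1s array labelled female.

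Of 13 hepatocyte metabolic genes 4 fell: Gys2 (liver glycogen synthase) by 1.05, Hgd (tyrosine breakdown) by 0.85, Otc (urea cycle) by 0.73 and Bhmt (methionine synthesis) by 0.52 on the log2 scale. Of all 13 differences 7 were below 0 and 6 above, with a median of -0.07, and the median was 0.01 on the arrays labelled male. One carrier value of Otc, 3.73, lay under the dim level. The calls of Gys2, Otc and Bhmt were lost in 4, 5 and 4 of the 8 refits. Of 9 hepatoblast and biliary genes 3 fell: Gpc3, a glypican of hepatoblasts (-0.78 ± 0.14 SE, adjusted p = 0.0114), Dlk1, a surface protein of hepatoblasts (-0.63 ± 0.12 SE, adjusted p = 0.0153), and Krt18, an epithelial keratin (-0.62 ± 0.15 SE, adjusted p = 0.0403). These were lost in 2, 3 and 6 refits, with an adjusted p of up to 0.163 for Krt18 without the WT/GATA1s array labelled female. Trf, which encodes transferrin of plasma, was the 1 of 13 iron transport genes called, at 9.69 and 9.62 on the WT/GATA1s arrays and 9.89 and 9.77 on the ERG/GATA1s arrays, against 10.99 and 10.75 on the WT arrays and 11.13 and 10.15 on the ERG Tg arrays, a difference of -1.01 ± 0.19 (SE; adjusted p = 0.0138) that was lost in 3 refits (adjusted p of up to 0.0642 without the WT/GATA1s array labelled female).

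Further liver genes among the 15 largest falls were Aadac, Bche, Serping1 and Slc27a2. Aadac, a microsomal deacetylase, had the largest, at 4.48 and 4.38 on the WT/GATA1s arrays and 4.21 and 4.02 on the ERG/GATA1s arrays, against 6.39 and 5.69 on the WT arrays and 6.51 and 5.02 on the ERG Tg arrays, a difference of -1.63 ± 0.26 (SE; adjusted p = 0.00708). Bche (butyrylcholinesterase) fell by 1.39 ± 0.20 (SE; adjusted p = 0.00398), Serping1 (the C1 inhibitor) by 1.25 ± 0.14 (SE; adjusted p = 0.00172) and the fatty acid transporter Slc27a2 by 1.25 ± 0.20 (SE; adjusted p = 0.00777). Kitl, the ligand of the KIT receptor that supports blood progenitors, was 3.94 and 4.10 on the WT/GATA1s arrays and 4.36 and 4.11 on the ERG/GATA1s arrays, against 5.37 and 5.12 on the WT arrays and 5.47 and 5.25 on the ERG Tg arrays. Its carriers lay below all non-carriers and the difference was -1.18 ± 0.12 (SE; adjusted p = 0.00172). The carrier signals of Kitl, of Aadac (4.02 to 4.48) and of Bche (3.77 to 4.45) lie near the dim level of 3.79, 1 of Bche under it. The sizes of these falls, and the rank of Aadac, are therefore uncertain. Igfbp1, an insulin-like growth factor binding protein made by liver, fell by 0.89 and was the 1 called of 13 IGF-related genes, a call lost without the WT/GATA1s array labelled female (adjusted p = 0.0503).

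**Figure D4:**
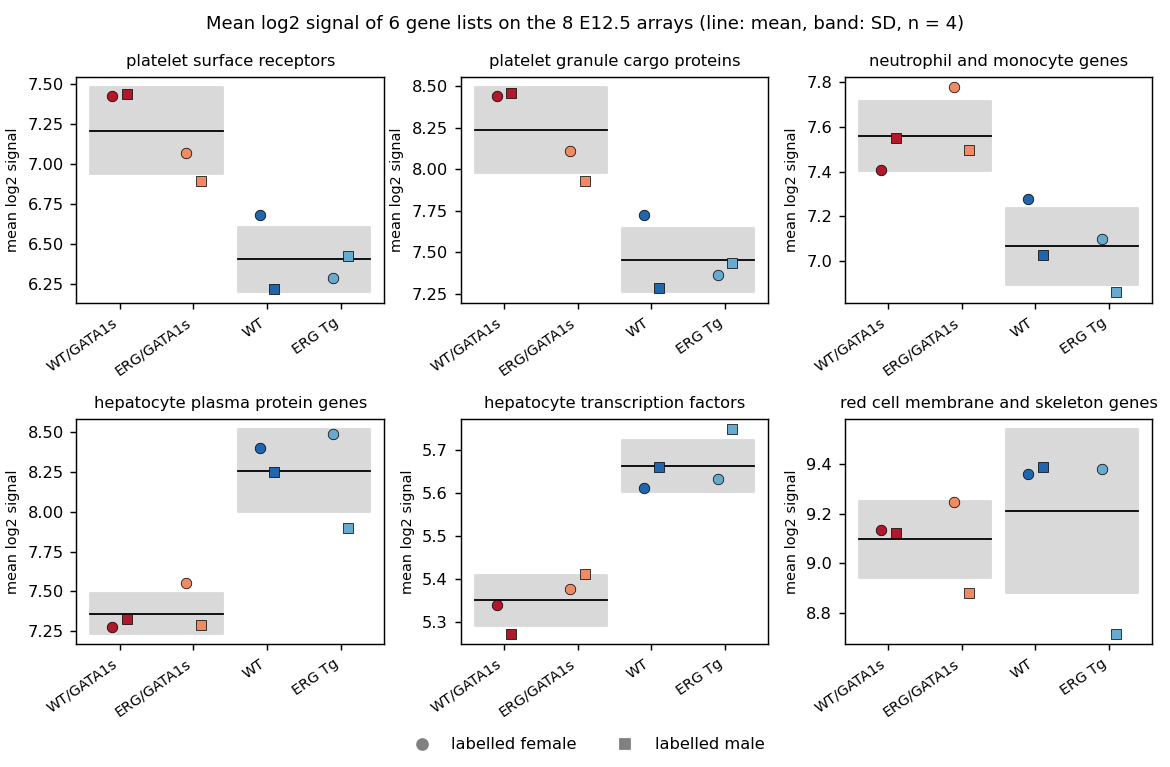
Mean log2 signal of 6 gene lists on the 8 E12.5 arrays, 1 point per array, carriers left and non-carriers right; circles are labelled female and squares male. Lines are the means of 4 arrays and grey bands are 1 SD. Carriers lie above non-carriers for platelet receptors, platelet cargo and neutrophil genes and below them for both hepatocyte lists, while the red cell list overlaps.

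The promoter windows of the hepatocyte genes were searched for GTTAAT, or its reverse complement ATTAAC on the other strand, 1 arm of the palindromic site of the liver factor HNF1. It was in 7 of 18 plasma protein genes called lower that had 1 window (38.9%), in 16 of 127 genes called lower (12.6%), in 4 of 175 called higher (2.3%) and in 403 of 9455 tested genes (4.3%). None of the 23 called platelet genes held it. The windows of Fgb, the fibrinogen beta chain, and Vtn are shown up to the start site, at chr3:83049864-83050113 on the minus strand and chr11:78498870-78499119 on the plus strand (GRCm38.p6), with the match in capitals, as examples of plasma protein genes that fell and hold it. Both were chosen after their sequences were seen.
Fgb: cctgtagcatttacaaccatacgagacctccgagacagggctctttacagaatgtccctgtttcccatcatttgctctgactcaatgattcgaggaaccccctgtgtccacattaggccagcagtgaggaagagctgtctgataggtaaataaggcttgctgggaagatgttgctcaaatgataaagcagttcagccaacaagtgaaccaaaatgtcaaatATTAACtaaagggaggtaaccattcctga
Vtn: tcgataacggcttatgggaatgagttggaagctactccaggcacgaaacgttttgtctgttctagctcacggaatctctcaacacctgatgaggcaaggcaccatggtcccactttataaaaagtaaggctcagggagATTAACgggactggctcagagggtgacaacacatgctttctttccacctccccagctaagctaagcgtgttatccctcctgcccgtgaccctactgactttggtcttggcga
The match begins 29 bases before the start site in Fgb and 112 bases before it in Vtn.

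Further genes stood among the 15 largest changes in each direction. Cap2, an actin-binding protein, rose by 1.61 ± 0.23 (SE; adjusted p = 0.00411), Slc24a3, a sodium, potassium and calcium exchanger, by 1.34 ± 0.19 (SE; adjusted p = 0.00387), Susd4, an inhibitor of complement, by 1.34 ± 0.22 (SE; adjusted p = 0.00708), and Klhl6 by 1.31 ± 0.21 (SE; adjusted p = 0.00708). Rny1, a small Y RNA, rose by 1.38 ± 0.23 (SE; adjusted p = 0.00823) and the unnamed transcript AI506816 by 2.24 ± 0.42 (SE; adjusted p = 0.0137). AI506816 lost its call without the WT/GATA1s array labelled female (adjusted p = 0.0503). Among the falls, Cpm, a membrane carboxypeptidase, differed by -1.28 ± 0.16 (SE; adjusted p = 0.00211), G2e3, a ubiquitin ligase, by -1.35 ± 0.23 (SE; adjusted p = 0.00823), Ambp, the precursor of a plasma protease inhibitor, by -1.21 ± 0.16 (SE; adjusted p = 0.00323), and Tasor, of the HUSH silencing complex, by -1.30 ± 0.28 (SE; adjusted p = 0.0257). Tasor lost its call in 4 of the 8 leave-one-out refits, with an adjusted p of up to 0.0901 without the WT/GATA1s array labelled female.

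Genes of other liver cells showed few calls. Of 15 macrophage genes Vcam1, an adhesion molecule of erythroblastic island macrophages, fell (-0.76 ± 0.16 SE, adjusted p = 0.0245), of 20 stellate and mesenchymal genes Reln and Alcam fell (-0.72 ± 0.15 SE, adjusted p = 0.0267 and -0.69 ± 0.15 SE, adjusted p = 0.0269), and of 19 endothelial genes Tie1, a receptor tyrosine kinase, rose (0.54 ± 0.11 SE, adjusted p = 0.0194). Of 7 tested lymphoid genes Cd79b, of the B cell receptor, rose (0.67 ± 0.15 SE, adjusted p = 0.0363). The medians of these lists were -0.12, 0.06, -0.07 and 0.12. All 5 calls were lost in 4 to 6 of the 8 leave-one-out refits. The list means lay between 5.73 and 5.97 in carriers and between 5.85 and 6.0 in non-carriers for macrophages, and between 5.73 and 6.05 in carriers and between 5.84 and 6.07 in non-carriers for endothelium.

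The 2 refits set out with the sex markers gave these counts for the remaining lists, first without both carrier arrays labelled male and then on the 6 arrays with female sex markers. Calls higher in carriers numbered 1 and 1 for the GATA factors and partners (1 on all 8 arrays), 0 and 1 for the RUNX and ETS factors (3), 5 and 5 for the lipoxygenase and prostanoid enzymes (5), 1 and 2 for the clade B serpins (2), 1 and 1 for the tetraspanins (2), 2 and 9 for the immediate early genes (4), 1 and 3 for the ATF4 genes (3), and 0 and 2 for the chemokines and cytokines (2). Calls lower in carriers numbered 2 and 4 for the hepatocyte transcription factors (4), 0 and 4 for the metabolic genes (4), 0 and 2 for the hepatoblast and biliary genes (3), 0 and 3 for the iron transport genes (1), 1 and 1 for the eosinophil, basophil and mast cell genes (2) and 1 and 1 for the IGF-related genes (1). Without both carrier arrays labelled male no stem cell, late red cell, globin, macrophage, lymphoid, endothelial or stellate gene passed (limma). On the 6 arrays 1 stem cell gene, 1 late red cell gene, 1 globin list gene, 1 macrophage gene and 1 stellate gene passed, all lower, and no lymphoid or endothelial gene did.

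Whether the difference depended on the ERG transgene was tested as an interaction. No gene passed (0% of 14818; limma, smallest adjusted p 0.997), and 348 had an unadjusted p under 0.05. With 2 arrays per group this test has 4 residual degrees of freedom, and a missed threshold does not show that the differences were alike. The 278 genes called higher had a median difference of 0.67 with ERG (ERG/GATA1s minus ERG Tg) and 0.74 without it (WT/GATA1s minus WT), and the 184 called lower -0.73 with ERG and -0.85 without it; both sets were chosen on the average of these values, so this is a description. Across all genes, which are not independent, the differences with and without ERG correlated at Pearson's r 0.56 and Spearman's rho 0.49; they share no array.

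The platelet receptors had a median of 0.62 with ERG and 1.16 without it, the granule cargo 0.60 and 0.88, and the hepatocyte plasma protein genes -0.83 and -1.17. Neutrophil genes had a median of 0.42 with ERG and 0.29 without it. None of these list differences was tested. The 3 genes of smallest interaction p were Hspb8, a small heat shock protein, Hspa1a and Ly6g. Hspb8 was 5.81 and 6.31 on the WT/GATA1s arrays and 7.16 and 6.64 on the ERG/GATA1s arrays, against 6.07 and 6.18 on the WT arrays and 5.55 and 5.48 on the ERG Tg arrays, a difference of 1.39 with ERG and -0.07 without it (interaction adjusted p = 0.997). Hspa1a differed by 1.70 with ERG and 0.53 without it, and Ly6g by 2.44 and 0.71.

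The differences at E14.5, in 8 arrays that the E12.5 values did not use, show which differences recurred. Their SE and p-values came from a fit of all 16 arrays, which pools the residual variance of both stages. That fit had 10 residual degrees of freedom, against 5 for the E12.5 calls. Counts and p-values of the 2 stages are therefore not of like power. The E14.5 test called 1690 genes (11.4%), 768 higher (5.18%) and 922 lower (6.22%). Of the 278 genes that rose at E12.5, 268 had a positive difference at E14.5 (96.4%, against 46.6% of all genes) and 183 were also called higher there, which is 65.8% of the E12.5 rises and 23.8% of the E14.5 rises. Of the 184 genes that fell, 60 had a negative difference at E14.5 (32.6%, against 53.4% of all genes), 19 were also called lower there, 10.3% of the E12.5 falls and 2.1% of the E14.5 falls, and 29 were called higher. The median E14.5 difference was 0.62 for the E12.5 rises and 0.23 for the E12.5 falls.

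**Figure D5:**
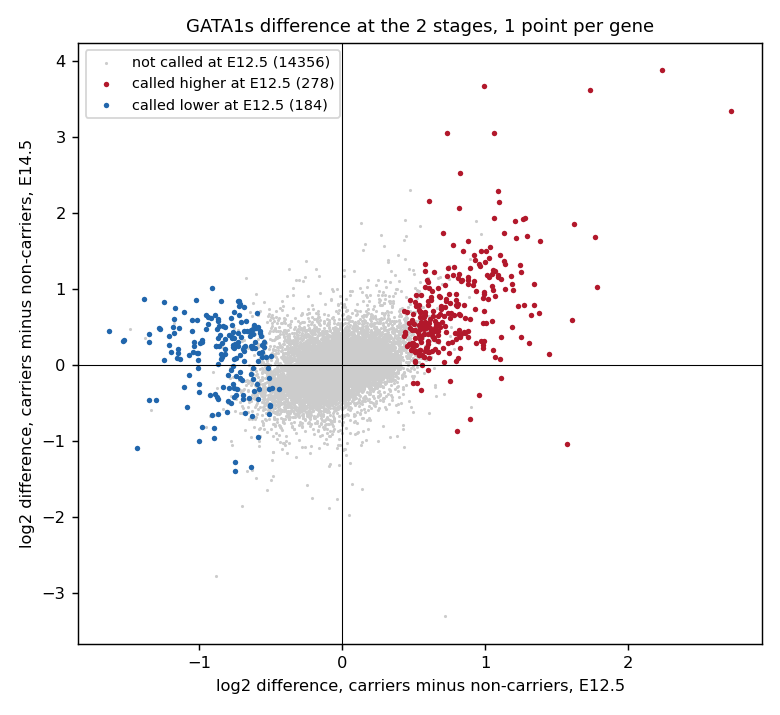
Log2 difference of carriers minus non-carriers at E12.5 (x axis) and at E14.5 (y axis), 1 point per gene; red genes were called higher and blue genes lower at E12.5, grey genes were not called. The choice of the coloured genes used the x axis only. Most of the 278 red points lie above 0 at E14.5, and 60 of the 184 blue points lie below it.

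The difference between the stages was itself tested and passed for 249 genes (1.68%), 54 more positive at E12.5 and 195 more negative. The falls and rises were chosen on the E12.5 difference, which enters this test, so their counts and signs are a description. The test passed for 91 of the 184 falls, 90 of them more negative at E12.5, and for 15 of the 278 rises. Among the hepatocyte plasma protein genes it passed for 23 of 30, whose list median was -1.02 at E12.5 and 0.31 at E14.5, where 4 were called higher and none lower. For the platelet receptors, cargo and signalling genes it passed for 1 receptor and for none of the cargo and signalling genes, and 13, 9 and 19 were called higher at E14.5. For these 3 lists the E14.5 medians were 1.17, 0.76 and 0.95.

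Kitl gave the smallest p of the stage test. It differed by -1.18 ± 0.12 (SE; adjusted p = 0.00172) at E12.5 and by 0.61 ± 0.13 (SE; adjusted p = 0.00616) at E14.5, and the 2 differed by -1.79 ± 0.18 (SE; adjusted p = 0.000426). Serpinf2, the plasma inhibitor of plasmin, was 8.31 and 8.43 on the WT/GATA1s arrays and 8.54 and 8.47 on the ERG/GATA1s arrays, against 9.50 and 9.73 on the WT arrays and 9.63 and 9.33 on the ERG Tg arrays, a difference of -1.11 ± 0.12 (SE; adjusted p = 0.00172) at E12.5 and of 0.70 ± 0.15 (SE; adjusted p = 0.00845) at E14.5. Fosb and Ccl3 rose at both stages and more at E14.5: Fosb by 0.99 at E12.5 and 3.68 ± 0.20 (SE; adjusted p = 7.21e-08) at E14.5, and Ccl3 by 0.73 at E12.5 and 3.06 ± 0.18 (SE; adjusted p = 9.63e-08) at E14.5. Npy, a neuropeptide, rose by 1.74 ± 0.25 (SE; adjusted p = 0.00398) at E12.5 and 3.62 ± 0.26 (SE; adjusted p = 1.01e-06) at E14.5. Car1 rose by 0.82 at E12.5 and 2.53 ± 0.17 (SE; adjusted p = 4.15e-07) at E14.5.

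In the other direction, Ly6g rose by 1.58 at E12.5 and had a difference of -1.04 ± 0.32 (SE; adjusted p = 0.0437) at E14.5. The 21 neutrophil and monocyte genes, a list without Ly6g, did not share this change of sign. Their median was 0.28 at E12.5 and 0.785 at E14.5. At E14.5 9 of them were called higher, where 5.18% of all genes were, and none lower. The stage difference passed for none of them. Hsd3b6, Slc6a20a and Ankrd9 had E12.5 differences of 0.43, 0.07 and 0.06, none called, and fell at E14.5 by 1.08, 1.56 and 1.29 on the log2 scale (adjusted p = 0.000452, 5.09e-05 and 5.44e-05). Cdkn2d, an inhibitor of the cell cycle kinase CDK4, rose by 0.52 ± 0.10 (SE; adjusted p = 0.0173) at E12.5 and had a difference of -0.24 ± 0.08 (SE; adjusted p = 0.0638) at E14.5. Gata2 rose at E12.5 and had a difference of 0.20 ± 0.16 (SE; adjusted p = 0.482) at E14.5, and the stage difference of 0.85 ± 0.22 (SE; adjusted p = 0.0698) did not pass. The E14.5 groups include the 2 arrays whose sex markers did not match their labels. Xist at E14.5 was 10.53 and 3.97 on the WT/GATA1s arrays and 4.22 and 4.19 on the ERG/GATA1s arrays. On the E14.5 WT arrays it was 11.52 and 3.94, and on the ERG Tg arrays 10.65 and 10.03. High Xist was thus more frequent among non-carriers at E14.5. At E12.5 Xist did not separate the groups, since only the ERG Tg array labelled male (5.73) lay below 9.35. The E12.5 Y-linked mean was 3.60 to 3.92 in carriers. It was 3.73 and 3.48 on the non-carrier arrays labelled female and 4.95 and 5.61 on those labelled male. The part of sex composition in the stage differences and changes of sign was not tested. Without both E12.5 carrier arrays labelled male the stage test called 69 genes, and leaving out single E12.5 arrays gave 93 and 109 without the WT/GATA1s array labelled female and male, 136 without the female-labelled WT array, and 434 without the ERG/GATA1s array labelled female. Among E14.5 arrays the count was 480 without the WT array labelled male, 123 and 147 without the ERG Tg array labelled female and male, and 161 without the ERG/GATA1s array labelled female.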

How the data were processed

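The authors deposited 1 table of log2 signal per probe set from Affymetrix whole-transcript arrays, normalized by RMA per the submitters' processing notes, with no version given there. Of 28270 probe sets 21780 had 1 gene symbol, 1617 had several and 4873 had none, and genes were named from the platform annotation, with 21689 gene IDs matched in RefSeq (GRCm38.p6). The probe set of highest mean over the 16 arrays stood for each symbol, and 14818 of 19934 symbols passed a filter of signal above 3.79, the 30th percentile of E12.5 values, on at least 4 of 8 arrays. Differences were fitted with limma 3.58.1 in R 4.3.3 (lmFit, eBayes), and p-values were two-sided with Benjamini-Hochberg adjustment. Residual degrees of freedom were 5 for the allele with ERG as a block, 4 for the interaction and 10 for the stage difference. The E14.5 tests came from the fit of the stage difference on all 16 arrays. The scripts were tested on simulated data. Array background correction could not be varied, since no scanner files were used here.

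The comparison, its members and the 33 gene lists were chosen with earlier results of these data known. The genes named are the 15 largest rises and falls, up to 6 called members of each list by size (or 2 of smallest p where none passed), Erg, Gata1, Gata2 and sex markers, and the 5 genes of smallest p per direction for the stage difference or 3 for the interaction. Other called members are named without values. Alternatives varied the filter, normalization, blocks, weights and arrays. No pair of arrays held identical values.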

Additional observations from a re-analysis of the deposited data

Results flagged for a closer look

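In 20 of 294 sets of 4 arrays examined (114 genes and 33 list means), 1 array lay far from the other 3 by Dixon's criterion, which chance gives in about 1 of 20. The ERG/GATA1s array labelled female was high among carriers for AI506816 (8.38, the others 7.83 to 7.92), Ear6 (7.96, 6.91 to 6.95), Vtn (7.64, 7.33 to 7.36), Apob (6.81, 6.39 to 6.44), Bcl11a (9.24, 8.76 to 8.82) and the mean of the hepatocyte plasma protein genes (7.55, 7.278 to 7.324), and low for the lymphoid mean (4.473, 4.613 to 4.627). The ERG/GATA1s array labelled male was low for Slc24a3 (6.26, 7.1 to 7.2), Alox5 (7.16, 7.62 to 7.67), Gata1 (9.30, 9.56 to 9.60) and the means of the ATF4 genes (7.678, 7.947 to 7.969) and the lipoxygenase and prostanoid enzymes (6.129, 6.383 to 6.428). The WT/GATA1s array labelled female was high for Slc6a20a (5.52, 4.89 to 4.93).

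Among non-carriers the ERG Tg array labelled male was low for Vtn (8.10, the others 8.93 to 9.06), Cpox (9.9, 10.51 to 10.61), Gys2 (5.55, 6.16 to 6.25) and the means of the red cell membrane genes (8.714, 9.363 to 9.389), the late red cell genes (8.807, 9.402 to 9.45) and the DNA replication and mitosis genes (9.146, 9.431 to 9.44). The WT array labelled female was high for Susd4 (5.58, 4.81 to 4.93).

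Over all genes 1.68% passed the test of the stage difference. Genes were named mostly for their E12.5 differences, and some for the smallest p of this same test. A count among the 114 named genes is therefore a description. For 37 of them the difference at E12.5 minus that at E14.5 passed (limma, adjusted p of 0.000426 to 0.046). In log2 units it was negative for genes of liver and plasma: Aadac (-2.0775), Serpind1 (-1.85), Cpn1 (-1.8525), Bche (-2.255), Fgg (-1.7675), Vtn (-1.6525), Apob (-1.755), Serping1 (-2.0775), Slc27a2 (-1.315), Ahsg (-1.59), Ambp (-1.47), Trf (-1.165), Hnf4a (-1.1375), Prox1 (-1.38), Onecut2 (-1.135), Gys2 (-1.505), Hgd (-1.685), Gpc3 (-1.145), Dlk1 (-0.89) and Serpinf2 (-1.8125). It was also negative for Npy (-1.8825), Cpm (-1.77), Car1 (-1.705), Vcam1 (-1.03), Reln (-0.8475), Alcam (-0.92), Fosb (-2.6825), Slc7a11 (-1.2025), Ccl3 (-2.3225), Kitl (-1.7875) and Pid1 (-1.305). It was positive for Ly6g (2.6175), Hsd3b6 (1.505), Slc6a20a (1.63), Ankrd9 (1.34), Cdkn2d (0.76) and Map2k3 (0.815).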

How the results depend on the processing

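The allele's comparison, with 462 calls, gave 275 with arrays centred on their medians (142 higher, 133 lower, against 278 and 184), 805 with labelled sex as a second block, 3951 with array weights, 93 without both carrier arrays labelled male, 232 on the arrays labelled female, 0 on those labelled male (limma; 1056 at an unadjusted p under 0.05), 197 without ERG and 26 with ERG. Leaving out 1 array gave 148 to 1115. No filter, a stricter filter, quantile normalization, trend and robust moderation, all probe sets, the 6 arrays with female sex markers, all 16 arrays, no ERG block and a Y-linked covariate gave 401, 448, 594, 481, 448, 542, 670, 486 and 586. The share of calls that were higher, 60.2%, moved by over 10 percentage points to 46.5% with the sex block, 44.3% with array weights, 37.6% on the 6 arrays, 43.7% with the covariate, 74.2% without both carrier arrays labelled male, 36.2% on the arrays labelled female, 42.6% without ERG, 84.6% with ERG, 46.1% when the male-labelled WT array was left out and 39.2% when the female-labelled ERG/GATA1s array was. The interaction gave no call in any setting run. The stage difference, with 249 calls, gave 2271 with array weights, 69 without both carrier arrays labelled male and 93 to 480 with 1 array left out. Hspb8 reversed to -0.065 without ERG. Slc6a20a reversed to -0.071 (array weights), -0.021 (without the ERG Tg array labelled male), -0.075 (without the WT/GATA1s array labelled female), -0.1175 (6 arrays), -0.0918 (covariate) and -0.025 (with ERG), and Ankrd9 to -0.0323 (array weights), -0.058 (without the ERG Tg array labelled male), -0.12 (6 arrays), -0.0917 (covariate) and -0.165 (labelled female); the highest leave-one-out values were 0.199 for Slc6a20a and 0.17 for Ankrd9, both without the ERG Tg array labelled female. None of these 3 genes was called. The cause of these changes was not tested. The labels number no replicates, and the 1 label that pairs arrays across groups is sex, whose block is given above. Depth is not defined for arrays, and 2 arrays per group limit the precision.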

Other observations

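Smaller lists that the comparison of carriers and non-carriers also covered gave few calls. Of 13 interferon response genes Rsad2, an antiviral enzyme, rose by 0.81 ± 0.19 (SE; adjusted p = 0.0412), with a list median of 0.21, and of 12 p53 target genes Perp, a membrane protein of cell death, rose by 0.77 ± 0.15 (SE; adjusted p = 0.0164), with a list median of 0.08. Their calls were lost in 6 and 2 of the 8 leave-one-out refits, with an adjusted p of up to 0.126 without the ERG Tg array labelled female and 0.075 without the WT/GATA1s array labelled male. None of 15 hypoxia response genes passed (limma), and 13 of their differences were below 0, with a median of -0.24 at E12.5 and 0.28 at E14.5. Egln3, an oxygen-sensing hydroxylase, and Adm (adrenomedullin) had the smallest p, with differences of 0.44 ± 0.14 (SE; adjusted p = 0.145) and -0.35 ± 0.12 (SE; adjusted p = 0.178). Of 3 tested sex-linked markers none passed: Xist differed by 0.72 ± 0.81 (SE; adjusted p = 0.653), Kdm5d by -0.60 ± 0.32 (SE; adjusted p = 0.353) and Uty by -0.67 ± 0.40 (SE; adjusted p = 0.407). These signs depended on the arrays: Xist differed by -0.69 on the arrays labelled female and by -0.075 without ERG, with -0.459 the lowest value when 1 array was left out, and Uty by 0.26 on the arrays labelled female. Map2k3, a stress kinase, had a difference of 0.40 ± 0.11 (SE; adjusted p = 0.0781) at E12.5 and -0.42 ± 0.09 (SE; adjusted p = 0.00571) at E14.5, and Pid1 had differences of -0.39 ± 0.13 (SE; adjusted p = 0.147) and 0.92 ± 0.11 (SE; adjusted p = 0.000138).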
